A study of Mus musculus with 6 samples.

Results

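The 45 genes described here are the nuclear genes of respiratory complex I that carry an Nduf symbol. They were taken from the deposited table by symbol alone, as Ndufa, Ndufab, Ndufb, Ndufc, Ndufs, Ndufv or Ndufaf followed by a number and without pseudogenes, and are 45 of the 55364 genes listed. Of them, 37 encode subunits (13 *Ndufa*, 1 *Ndufab*, 10 *Ndufb*, 2 *Ndufc*, 8 *Ndufs* and 3 *Ndufv*) and 8 encode *Ndufaf* assembly factors. Zygotes of the cross BDF1 x BDF1 were injected with a control siRNA (control KD) or an siRNA against *Yy1* (*Yy1* KD), cultured in KSOM medium and collected as morulae. *Yy1* encodes YY1, a zinc finger transcription factor. Each group had 3 libraries, and each library was made from the total RNA of a pool of whole morulae with a kit that amplifies cDNA of very small inputs (SMART-Seq stranded). Both groups received an siRNA, and 1 siRNA against *Yy1* was named in the methods. The comparison asks which complex I genes differ in RNA level after *Yy1* KD at the morula stage.

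Complex I is the entry point of the mitochondrial respiratory chain. It takes electrons from NADH, passes them along a row of iron-sulfur clusters to ubiquinone, and pumps protons across the inner membrane. The peripheral arm reaches into the matrix and holds the NADH site, the clusters and the ubiquinone site, and the membrane arm holds the proton pumps. Core subunits do the chemistry, and accessory subunits surround and stabilize them. Assembly factors help to build or modify the complex and are absent from the finished enzyme. Preimplantation embryos use mitochondria inherited from the oocyte.

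The siRNA target *Yy1* was at 96.0, 100.2 and 89.8 TPM with the control siRNA and 8.73, 8.90 and 8.32 TPM after *Yy1* KD, so its groups lay far apart. The libraries held between 11793509 and 24417789 read pairs on genes, as recovered from TPM and exon length. TPM counts read pairs per exon length and is scaled to a fixed sum per library, so levels can be set between genes. Summed TPM of 8 morula markers was between 1876 and 2073 in control KD and between 1656 and 1757 in *Yy1* KD morulae, and all 8 reached 1 TPM in a library. This sum was lower in each *Yy1* KD library, and log2 fold changes were negative for 7 of the 8 markers. *Tfap2c* was called lower, at 183 ± 7.24 and 126 ± 9.14 TPM. *Sox2* was lower without overlap but not called, at 11.0 ± 2.91 and 5.60 ± 1.51 TPM. The part of these markers and of depth in the results was not tested. Of 6 cumulus and granulosa cell markers, *Ptx3*, *Cyp19a1*, *Has2* and *Fshr* were at 0 in every library. The summed level was between 8.16 and 10.02 TPM in control KD and between 7.50 and 10.4 TPM in *Yy1* KD morulae. Most of it was *Amhr2*, which was present in every library, between 7.15 and 10.02 TPM. *Inha* was at 0 in control KD and at 0.35, 0 and 1.78 TPM in *Yy1* KD morulae. The sum of 4 sperm markers stayed at or under 2.26 TPM, with *Tnp1* at 0, and that of 4 oocyte markers was between 35.5 and 46.0 TPM in control KD and between 35.3 and 46.4 TPM in *Yy1* KD morulae. Differences were tested with limma on log2(TPM + 1) over 17353 genes, with Benjamini-Hochberg adjustment and calls at an adjusted p under 0.05. The pseudocount makes fold changes of low genes too small. Fewer cells of a type and less RNA per cell cannot be told apart in such pools.

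The letters of the YY1 consensus, GCCATNTT, or AANATGGC on the other strand, were searched in the promoters that RefSeq gives for GRCm38.p6, from 250 bases before to 50 bases after the annotated start. A promoter was held for 40 of the 45 genes, and *Ndufa2*, *Ndufaf6*, *Ndufb9* and *Ndufs1* were among those without. The consensus was present in 14 of the 40 (35.0%), against 1015 of 9767 tested genes with a promoter (10.4%). Among the 10 downregulated complex I genes with a promoter, 6 held it (60%), as did 7 of the 29 that were not called (24.1%) and the single upregulated gene. Shares over all genes were 27.7% of the downregulated, 14.1% of the upregulated and 9.33% of those not called. A match is a string of letters and says nothing about binding in morulae.

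The downregulated *Ndufa3*, *Ndufc1*, *Ndufs4* and *Ndufs6* shared the same 8 letters within 50 bases after the start, and the surrounding 30 bases are shown because the match has the same form in all of them. Each is on the coding strand, 5′ to 3′, with the consensus in capitals, in GRCm38.p6.
Ndufa3 (chr7:3617384-3617413, plus strand): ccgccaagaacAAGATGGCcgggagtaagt
Ndufc1 (chr3:51408915-51408944, minus strand): gcctgcggaacAAGATGGCgccgtccgtag
Ndufs4 (chr13:114388045-114388074, minus strand): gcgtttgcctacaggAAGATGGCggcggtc
Ndufs6 (chr13:73328433-73328462, minus strand): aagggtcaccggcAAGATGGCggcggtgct

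In these genes the first capital stood at base 23, 23, 36 and 34, counted from 1 at the annotated start. The capitals also cover the annotated ATG start codon in each. The same letters after the start occurred in genes that were not called, which are shown for comparison.
Ndufa9 (chr6:126849097-126849126, minus strand): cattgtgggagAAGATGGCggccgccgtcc
Ndufaf8 (chr11:120098933-120098962, plus strand): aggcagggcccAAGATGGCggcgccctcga
Ndufb8 (chr19:44555393-44555422, minus strand): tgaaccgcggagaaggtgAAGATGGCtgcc
Ndufs7 (chr10:80249462-80249491, plus strand): aggccgaggccAAGATGGCggcgctggcgg

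Matches after the start were found in 8 of the 40 genes (20%), against 5.06% of all tested genes with a promoter. They were in 4 of the 10 downregulated (40%) and in 4 of the 29 not called (13.8%). All of them but that of *Ndufaf8* cover the start codon. The same letters near the start thus occurred both in complex I genes that were called and in others that were not.

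Before the start, matches were found in the downregulated *Ndufb5* and *Ndufb11* and in *Ndufs8*, the upregulated gene, and these are shown because they stand farther from the start.
Ndufb5, base -225 (chr3:32736827-32736856, plus strand): tgcccttactaAACATGGCcgctcccacgg
Ndufb5, base -73 (chr3:32736979-32737008, plus strand): tgccctcactcAATATGGCctcctctagcg
Ndufb11, base -211 (chrX:20617812-20617841, minus strand): gtcaccaacacAAAATGGCgacgagaagag
Ndufs8, base -165 (chr19:3912921-3912950, minus strand): ctctctgatacAACATGGCagctccctaca

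The genes not called with a match before the start were *Ndufa7*, *Ndufaf3* and *Ndufb10*. That of *Ndufa7* begins at base -18 and also covers the annotated start codon. The downregulated *Ndufa5*, *Ndufa13*, *Ndufb4* and *Ndufv2* had a promoter window without these letters. Other known regulators of respiratory genes bind other letters. The ETS site CCGGAAGT, which GABP can bind, was in the promoter of 1 of the 40 genes (2.5%), *Ndufs3*, against 9.48% of all tested genes with a promoter. The NRF1 site GCGCATGC was in 5 of 40 (12.5%), against 6.01%, and these 5, *Ndufa6*, *Ndufa8*, *Ndufa11*, *Ndufaf4* and *Ndufaf5*, were not called. Over all genes with a promoter it was in 6.4% of the downregulated and 5.91% of those not called, so these shares were close. The ETS and NRF1 sites were searched on both strands, and where matches overlapped the gene was counted once. These 2 sites were chosen after the expression values had been seen.

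**Figure D1:**
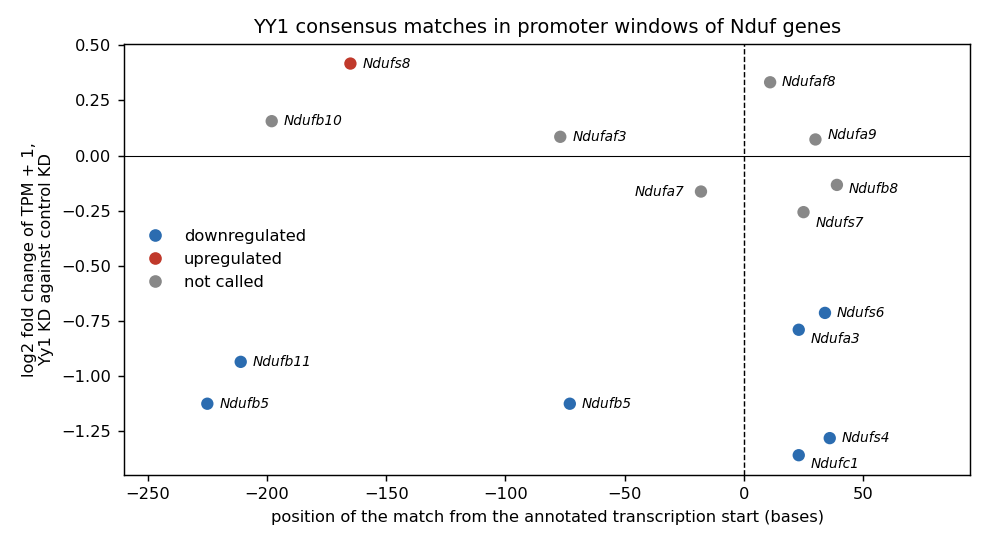
Log2 fold change of TPM + 1 (*Yy1* KD against control KD) of the 14 complex I genes with a YY1 consensus match, against the position of the match in bases from the annotated start (dashed line). Downregulated genes (blue) lie at the lower right and lower left, and *Ndufs8* (red) and genes not called (grey) lie above them, on both sides of the start.

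*Yy1* KD morulae had lower RNA levels of part of the nuclear complex I genes. Of the 37 subunit genes, 11 were downregulated and 1, *Ndufs8*, was upregulated, and of the 8 *Ndufaf* genes 1, *Ndufaf6*, was downregulated and 0 upregulated. At an unadjusted p under 0.05 limma gave 1 upregulated *Ndufaf* gene, as did limma-voom on recovered read pairs after adjustment. Over all genes tested 4.2% were downregulated (728 genes) and 1.92% upregulated (333 genes). At an unadjusted p under 0.05, 4123 of 17353 genes passed in either direction. With limma-voom 1280 of 16931 genes were downregulated and 809 upregulated after adjustment. These are the counts over all genes for the later comparisons at these settings. Among 8264 protein-coding genes within the range of control TPM that the 45 genes spanned, 6.92% were downregulated and 1.86% upregulated. With quantile normalization 548 genes were downregulated and 388 upregulated, and downregulated genes were 58.5% of the calls in place of 68.6%.

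The changes were uneven within the complex. The median log2 fold change was -0.045 for the 37 subunit genes and -0.0036 for the *Ndufaf* genes, against -0.025 for all genes tested. For the 8264 protein-coding genes within the same range of control TPM it was -0.0755, lower than both. With quantile normalization the medians of subunit genes, *Ndufaf* genes and all genes tested were 0.028, 0.078 and 0.021. The subunit genes named here ranged from -1.82 to 0.55. All 3 *Yy1* KD libraries lay below all 3 control KD libraries for 16 subunit genes (17.2% of all genes) and above them for 4 (12.9% of all genes), and for 17 the groups overlapped. Of the 8264 protein-coding genes in the same range of control TPM, 2125 lay lower and 1132 higher without overlap. Summed over the 37 genes, TPM was 1892, 1847 and 1921 in control KD and 1749, 1612 and 1524 in *Yy1* KD morulae, so the sum was lower in each *Yy1* KD library and its mean was 86.3% of the control. The sum of the 8 *Ndufaf* genes was 167, 176 and 171 against 196, 165 and 172 TPM, and its groups overlapped.

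Fits that left out a library gave fewer calls, in complex I and over all genes. Downregulated subunit genes numbered 2 without control KD replicate 1, 3 without control KD replicate 2 and 1 without control KD replicate 3. They numbered 9 without *Yy1* KD replicate 1, 5 without *Yy1* KD replicate 2 and 6 without *Yy1* KD replicate 3, and 0 were upregulated in any of these fits. Over all genes 728 were downregulated with all libraries. Without control KD replicate 1, 2 or 3 these became 84, 129 and 50. Without *Yy1* KD replicate 1, 2 or 3 they became 329, 176 and 335. *Ndufaf6* was called in all 6 of these fits and *Ndufa5* in 5, missing in that without control KD replicate 3. *Ndufc1* was called in 4, lost without control KD replicates 1 and 3, and *Ndufb5* in 3, lost without each of the control KD libraries. *Ndufs4* and *Ndufs6* were called in the fits without *Yy1* KD replicate 1 or 3, and *Ndufb11* in those without *Yy1* KD replicate 1 or 2. *Ndufa13* and *Ndufv2* were called in the fit without *Yy1* KD replicate 1, and *Ndufa3*, *Ndufb4* and *Ndufs8* in 0. Without a filter on low values, and likewise without the variance trend, 5 subunit genes were downregulated and 0 upregulated. No alternative turned the direction of a called gene. Single genes whose groups do not overlap have a two-sided exact permutation p of 0.1, the smallest that 3 libraries against 3 allow.

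**Figure D2:**
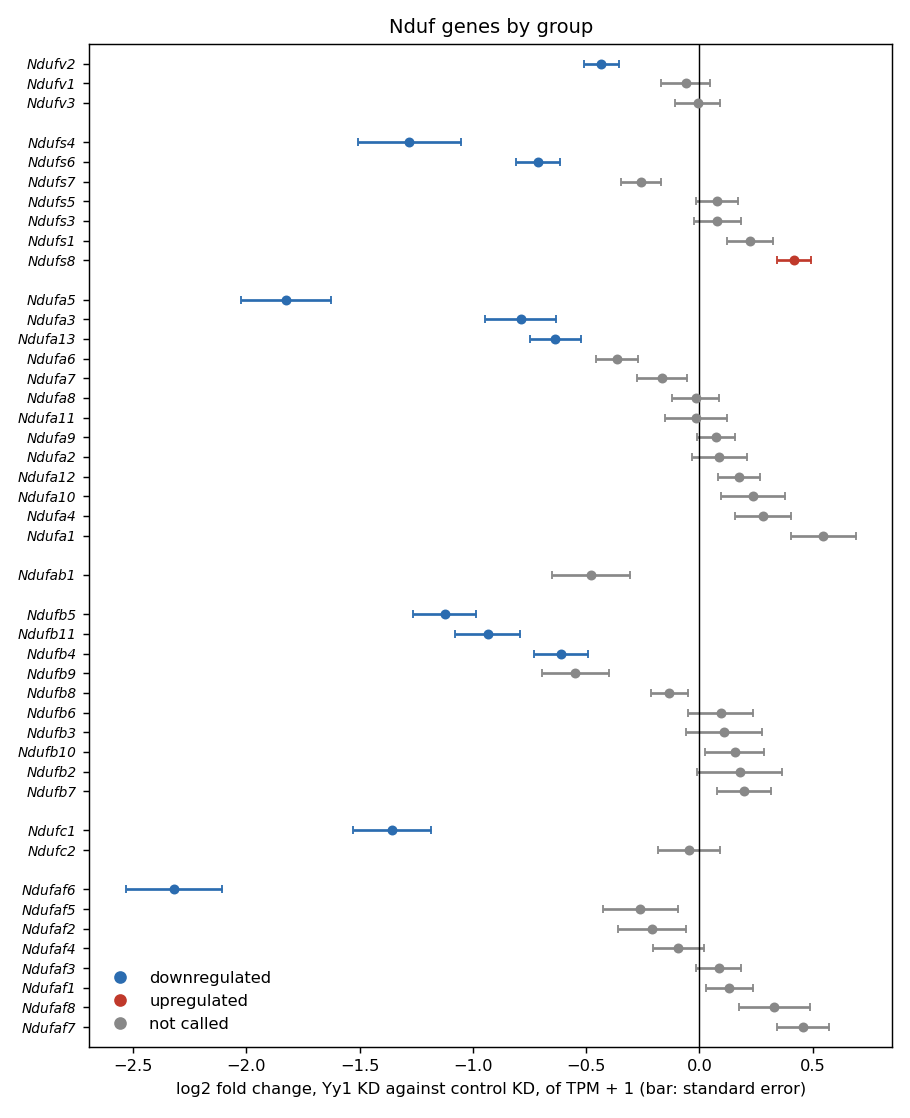
Log2 fold change of TPM + 1 (*Yy1* KD against control KD, horizontal axis) of the Nduf genes named in the text with limma's standard error as bars, grouped by symbol and sorted within each group. Downregulated genes (blue) are spread over all groups but *Ndufab*, and *Ndufs8* (red) is the upregulated gene.

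The peripheral arm had 5 downregulated and 1 upregulated of 16 genes, with a median log2 fold change of -0.11. Among its core subunits, *Ndufv2* was downregulated, *Ndufs8* was upregulated, and *Ndufv1*, *Ndufs1*, *Ndufs3* and *Ndufs7* were not called.

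Of the core subunits near the ubiquinone site, *Ndufs8*, which carries iron-sulfur clusters, was upregulated. It went from 70.8, 75.0 and 72.5 TPM to 103.9, 94.7 and 94.0 TPM. Every *Yy1* KD library was higher, with a log2 fold change of 0.42 and a standard error of 0.075 (limma adjusted p = 0.0301). It is on the minus strand of chromosome 19 from 3908863 to 3912774 in GRCm38 (ENSMUSG00000059734.7). *Ndufs7*, which holds the last cluster before ubiquinone, was at 103 ± 5.10 and 86.0 ± 7.39 TPM (log2 fold change -0.26, limma adjusted p = 0.143), with lower values in each *Yy1* KD library. *Ndufs3* was at 34.7 ± 1.90 and 36.9 ± 3.72 TPM, with overlapping groups.

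*Ndufa5*, an accessory subunit of the same arm, was strongly downregulated. It was at 53.0, 56.8 and 68.7 TPM with the control siRNA and 18.4, 11.6 and 19.0 TPM after *Yy1* KD, with no overlap. The mean fell to 27.5% of the control, with a log2 fold change of -1.82 and a standard error of 0.20 (limma adjusted p = 0.0109). The gene (ENSMUSG00000023089.12) is on the minus strand of chromosome 6 from 24518666 to 24528013 and shares no exon with another gene. *Ndufa6*, an accessory subunit that binds an acyl carrier protein, was at 57.3, 51.0 and 55.7 TPM against 42.8, 39.0 and 44.9 TPM. All *Yy1* KD values were lower, but the log2 fold change, -0.36, did not pass the test (standard error 0.092, limma adjusted p = 0.0674). *Ndufa9* was at 73.1 ± 5.30 and 76.8 ± 3.29 TPM, and *Ndufa2* and *Ndufa7* also had overlapping groups.

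At the NADH end of the arm, *Ndufv2* carries the cluster next to the flavin and was at 89.1, 85.6 and 90.5 TPM with the control siRNA and 70.3, 63.1 and 62.5 TPM after *Yy1* KD. Each group was tight, with a log2 fold change of -0.43 and a standard error of 0.078 (limma adjusted p = 0.0303), the smallest among the downregulated complex I genes. *Ndufv2* (ENSMUSG00000024099.15) is on the minus strand of chromosome 17 from 66078638 to 66101559. *Ndufv1*, which binds NADH and the flavin, was at 39.5 ± 2.71 and 37.9 ± 4.21 TPM, and its groups overlapped. *Ndufv3* had the smallest change of all 45 genes, with 31.6, 31.1 and 34.6 TPM against 33.0, 29.4 and 34.4 TPM (log2 fold change -0.0075). *Ndufs1*, the large core subunit with several clusters, was at 28.0 ± 1.14 and 33.0 ± 3.08 TPM, higher in each *Yy1* KD library but not called (limma adjusted p = 0.241).

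The accessory subunits *Ndufs4* and *Ndufs6* sit at the NADH end and were both downregulated. *Ndufs4*, whose loss in mice is a model of Leigh syndrome, was at 22.4, 19.2 and 25.5 TPM against 10.8, 9.74 and 5.89 TPM. *Yy1* KD replicate 3 was the lowest, and the mean was 39.4% of the control (log2 fold change -1.28, standard error 0.23, limma adjusted p = 0.0297). *Ndufs6*, a zinc-binding subunit, was at 47.0, 52.3 and 52.1 TPM against 32.9, 30.4 and 28.0 TPM. All 3 values were lower in *Yy1* KD (log2 fold change -0.71, standard error 0.097, limma adjusted p = 0.0145). *Ndufs4* (ENSMUSG00000021764.8) and *Ndufs6* (ENSMUSG00000021606.8) are both on the minus strand of chromosome 13, from 114287795 to 114388258 and from 73319838 to 73328542. *Ndufs6* shares 30 nt of exon with *Mrpl36*, whose groups overlapped. *Ndufa12*, which joins this arm late in assembly, was at 35.1 ± 0.857 and 39.9 ± 3.42 TPM, higher in each *Yy1* KD library but not called (limma adjusted p = 0.310).

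**Figure D3:**
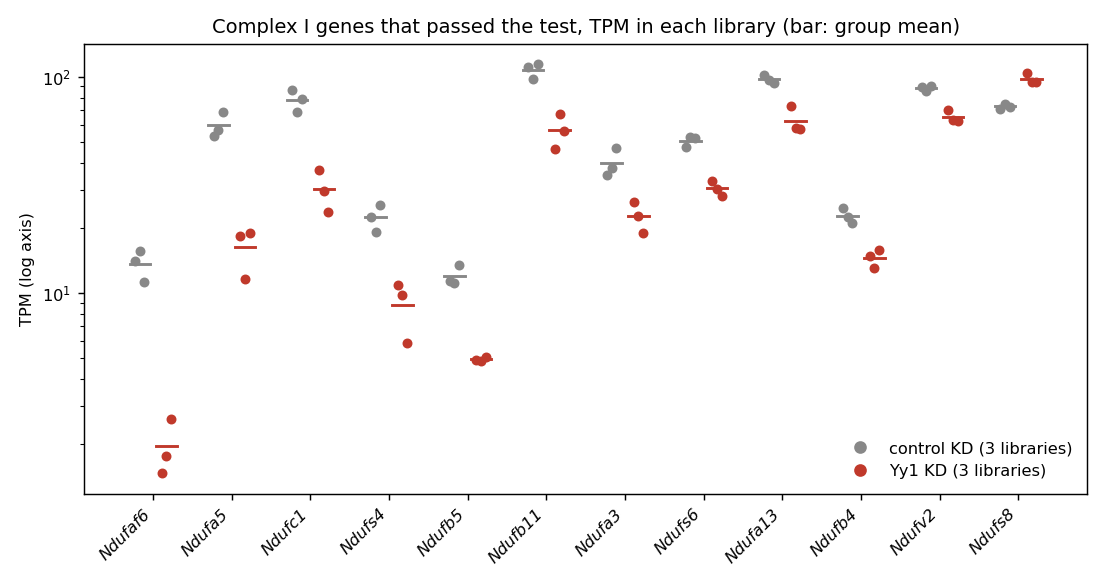
TPM in each library (vertical log axis) of downregulated complex I genes named in the text, sorted by log2 fold change, and of *Ndufs8* at the right. Points are the 3 control KD (grey) and 3 *Yy1* KD (red) libraries and bars are group means, and the groups of each gene stand apart, most widely for *Ndufaf6*.

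The membrane arm had 6 downregulated and 0 upregulated of 19 nuclear genes, all of them accessory subunits, with a median of -0.017. At an unadjusted p limma gave 1 upregulated gene here and limma-voom 0 after adjustment. The core pumps of this arm are encoded by mitochondrial DNA, and 0 of their 7 genes were listed in the table, so the nuclear and the mitochondrial part could not be compared.

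*Ndufc1*, a small subunit with a single membrane span, changed most in this arm. Its level was 86.6, 68.3 and 78.4 TPM with the control siRNA and 37.1, 29.4 and 23.8 TPM after *Yy1* KD. The groups stood apart and the mean was 38.7% of the control (log2 fold change -1.36, standard error 0.17, limma adjusted p = 0.0127). The gene (ENSMUSG00000037152.11) is on the minus strand of chromosome 3 from 51404677 to 51408988. Its namesake *Ndufc2* was at 50.5, 57.2 and 64.0 TPM against 62.3, 46.8 and 57.6 TPM, with overlapping groups (log2 fold change -0.045, limma adjusted p = 0.880).

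Of the *Ndufb* subunits, which lie toward the far end of the arm, *Ndufb5*, *Ndufb11* and *Ndufb4* were downregulated. *Ndufb5* was at 11.3, 11.1 and 13.4 TPM against 4.87, 4.82 and 5.07 TPM, with *Yy1* KD values close together at 41.2% of the control mean (log2 fold change -1.12, standard error 0.14, limma adjusted p = 0.0126). *Ndufb11*, an abundant X-linked gene, was at 111, 97.9 and 114 TPM against 46.0, 67.1 and 56.0 TPM. Its groups stood apart (log2 fold change -0.93, standard error 0.14, limma adjusted p = 0.0207). *Ndufb4* was at 24.7, 22.4 and 21.1 TPM against 14.7, 13.1 and 15.8 TPM, again without overlap (log2 fold change -0.61, standard error 0.12, limma adjusted p = 0.0358).

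These genes lie on chromosome 3 from 32736990 to 32751566, plus strand (*Ndufb5*, ENSMUSG00000027673.12), on chromosome X from 20615326 to 20617619, minus strand (*Ndufb11*, ENSMUSG00000031059.9), and on chromosome 16 from 37647170 to 37654453, minus strand (*Ndufb4*, ENSMUSG00000022820.4). Shared sequence limits their values, since pairs on overlapping genes were divided among them without regard to strand. *Ndufb5* shares 616 nt of exon with *Mrpl47*, which was at 22.3 ± 0.773 and 18.7 ± 1.85 TPM and was not called. *Ndufb11* shares 117 nt with *Rbm10*, which was itself downregulated, from 76.4 ± 6.20 to 43.6 ± 2.44 TPM (log2 fold change -0.80). Of all stretches of 100 nt in *Ndufb4* transcripts, 16.0% also occur in the copy *Ndufb4c*, which was at 49.6 ± 9.75 and 36.5 ± 12.9 TPM with overlapping groups.

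The other *Ndufb* genes did not pass the test. *Ndufb9*, which binds an acyl carrier protein on this arm, was at 41.7, 39.4 and 55.1 TPM against 32.9, 31.0 and 27.5 TPM. The groups stood apart, with a log2 fold change of -0.55 and a standard error of 0.15 (limma adjusted p = 0.0794). *Ndufb10* was at 111, 106 and 109.6 TPM against 137, 132 and 98.4 TPM, and its groups overlapped. *Ndufb8* was at 36.9 ± 1.06 and 33.5 ± 1.29 TPM, lower in each *Yy1* KD library. *Ndufb2*, *Ndufb3*, *Ndufb6* and *Ndufb7* had overlapping groups and log2 fold changes between 0.094 and 0.20. The pseudogene-named *Ndufb1-ps*, which the symbol rule leaves out, was at 31.3 ± 5.72 and 31.1 ± 4.67 TPM.

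Near the joint of the arms, *Ndufa13* and *Ndufa3* were downregulated. *Ndufa13*, also known as GRIM-19, was at 102, 96.6 and 93.5 TPM against 72.9, 57.6 and 57.3 TPM (log2 fold change -0.64, standard error 0.11, limma adjusted p = 0.0283). *Ndufa3* was at 35.0, 38.0 and 46.7 TPM against 26.3, 22.8 and 19.0 TPM (log2 fold change -0.79, standard error 0.16, limma adjusted p = 0.0386). In both genes every *Yy1* KD library was below every control KD library. *Ndufa13* (ENSMUSG00000036199.9) is on the minus strand of chromosome 8 from 69894180 to 69902558 and shares 375 nt with *Tssk6*, which had group means of 2.17 and 1.78 TPM. *Ndufa3* (ENSMUSG00000035674.13) spans 3617373 to 3620327 of chromosome 7, plus strand. With quantile normalization *Ndufa3* was not called.

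*Ndufa1*, a small membrane subunit encoded on chromosome X like *Ndufb11*, moved the other way without passing the test. It was at 24.4, 21.5 and 31.3 TPM against 37.0, 39.5 and 36.6 TPM, so all *Yy1* KD values were higher (log2 fold change 0.55, standard error 0.14, limma adjusted p = 0.0754). *Ndufs5*, an intermembrane-space subunit, had the highest level of all 45 genes, with 179, 155 and 174 TPM against 195, 177 and 165 TPM, and its groups overlapped (log2 fold change 0.079). *Ndufa8*, *Ndufa10* and *Ndufa11* had overlapping groups, with log2 fold changes of -0.017, 0.24 and -0.015. *Ndufab1*, the mitochondrial acyl carrier protein present in both arms, was at 9.16, 10.02 and 10.04 TPM against 8.02, 5.30 and 7.05 TPM. Its groups stood apart, but it did not pass the test (log2 fold change -0.48, standard error 0.17, limma adjusted p = 0.153). *Ndufa4*, kept here by its symbol, is now counted with complex IV and was at 33.8 ± 4.30 and 41.2 ± 4.29 TPM, with overlapping groups.

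In control KD morulae the 45 genes had mean levels from 3.41 TPM (*Ndufb2*) to 169 TPM (*Ndufs5*), with a median of 39.5 TPM against 8.75 TPM for all genes tested. Most subunits are found once in each complex, while their RNA levels differed widely. Downregulated genes were at all levels, from *Ndufb11*, in place 3 of 45, to *Ndufb5*, in place 41. Levels of *Ndufb2* and *Ndufab1* rest on merged exon lengths of 5628 and 6883 nt, which lower their TPM against that of genes with short annotated exons.

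*Ndufaf6*, which is needed for an early step that involves a mitochondrially encoded membrane subunit, was the downregulated assembly factor. It was at 14.1, 15.6 and 11.3 TPM with the control siRNA and 1.46, 1.77 and 2.62 TPM after *Yy1* KD. The groups were far apart and the mean was 14.3% of the control. The log2 fold change was -2.32, with a standard error of 0.21 (limma adjusted p = 0.00632). The gene (ENSMUSG00000050323.14) is on the minus strand of chromosome 4 from 11051045 to 11076205 and shares no exon with another gene.

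The other 7 *Ndufaf* genes were not called. *Ndufaf7*, an arginine methyltransferase that acts during assembly, was at 14.2, 11.9 and 12.7 TPM against 18.9, 17.6 and 17.7 TPM, higher in each *Yy1* KD library (log2 fold change 0.46, standard error 0.11, limma adjusted p = 0.0652). It was called with limma-voom on recovered read pairs, with a mean TPM of at least 5, with quantile normalization and among protein-coding genes alone. *Ndufaf8*, the partner of *Ndufaf5*, was at 48.9, 58.9 and 59.7 TPM against 87.7, 60.2 and 65.6 TPM. The lowest *Yy1* KD value was just above the highest control KD value (log2 fold change 0.33, standard error 0.16, limma adjusted p = 0.260). *Ndufaf1*, *Ndufaf3*, *Ndufaf4* and *Ndufaf5* had overlapping groups, with log2 fold changes between -0.26 and 0.13. *Ndufaf2* was at 10.4 ± 1.76 and 8.79 ± 0.185 TPM, and 62.4% of its stretches of 100 nt also occur in the overlapping *B230220B15Rik*, so its value is uncertain.

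Assembly genes without an Nduf symbol showed no call, with 0 downregulated and 0 upregulated of 13 tested and a median of -0.0086. At an unadjusted p under 0.05 limma gave 4 lower and 2 higher of them, and limma-voom called 2 lower and 1 higher after adjustment. Over all genes, 4123 of 17353 passed at the unadjusted p in either direction. Limma-voom called 1280 lower and 809 higher of 16931 genes. The groups of 5 of the 13 lay lower without overlap (17.2% of all genes) and those of 2 higher (12.9%). The lower genes were *Dmac2*, at 8.07 ± 1.34 and 3.16 ± 2.13 TPM (log2 fold change -1.24, standard error 0.36, limma adjusted p = 0.0996), *Tmem126b*, *Lyrm2*, *Acad9* and *Tmem186*. *Acad9*, a member of the complex that builds the membrane arm with *Ndufaf1* and *Ecsit*, was at 24.3 ± 1.21 and 19.7 ± 1.97 TPM (limma adjusted p = 0.168). *Timmdc1* and *Aifm1* were higher, and *Aifm1*, which helps to import small respiratory proteins, was at 28.6 ± 1.29 and 36.9 ± 2.49 TPM (limma adjusted p = 0.0732).

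Genes of complexes II to V gave 8 downregulated and 0 upregulated of 46 tested, against 11 and 1 of 37 for complex I. Groups lay lower without overlap for 19 of the 46 and 16 of the 37 (17.2% of all genes), and higher for 1 and 4 (12.9%). The median log2 fold change was -0.117 for complexes II to V and -0.045 for the complex I subunits. At an unadjusted p limma gave 18 lower and 0 higher of the 46. For the 37 these were 15 and 2, where 4123 of 17353 genes passed in either direction. With limma-voom 8 of the 46 were downregulated and 0 upregulated, but not all were the same genes. It called 1 in complex IV and 2 in complex V, against 2 and 1 with limma. Over all genes limma-voom called 1280 of 16931 downregulated and 809 upregulated. The difference between complexes was not tested. Complex III had 4 of 9 downregulated, *Cyc1*, *Uqcrb*, *Uqcrc1* and *Uqcrh*, with log2 fold changes between -0.62 and -0.44. *Sdhb*, the iron-sulfur subunit of complex II, was 1 of 4 (log2 fold change -0.46, limma adjusted p = 0.0322), and *Cox5b* (-0.35) and *Cox8a* (-0.66) were 2 of 15 in complex IV. *Atp5a1*, which encodes the alpha subunit of ATP synthase, was 1 of 18 in complex V, where *Atp5o* stands under 2 identifiers. It was at 348, 365 and 328 TPM against 206, 207 and 188 TPM, without overlap (log2 fold change -0.79, standard error 0.075, limma adjusted p = 0.00693). Each of the 6 fits without a library called it, and the other 7 called genes in between 0 and 2 of them. The assembly factor gene *Ndufaf6* and the subunit genes *Ndufa5*, *Ndufc1*, *Ndufs4* and *Ndufb5* had log2 fold changes below -1, and 0 of the called genes of complexes II to V did. This limit was not set in advance, and the 5th percentile of all genes tested was -0.85.

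**Figure D4:**
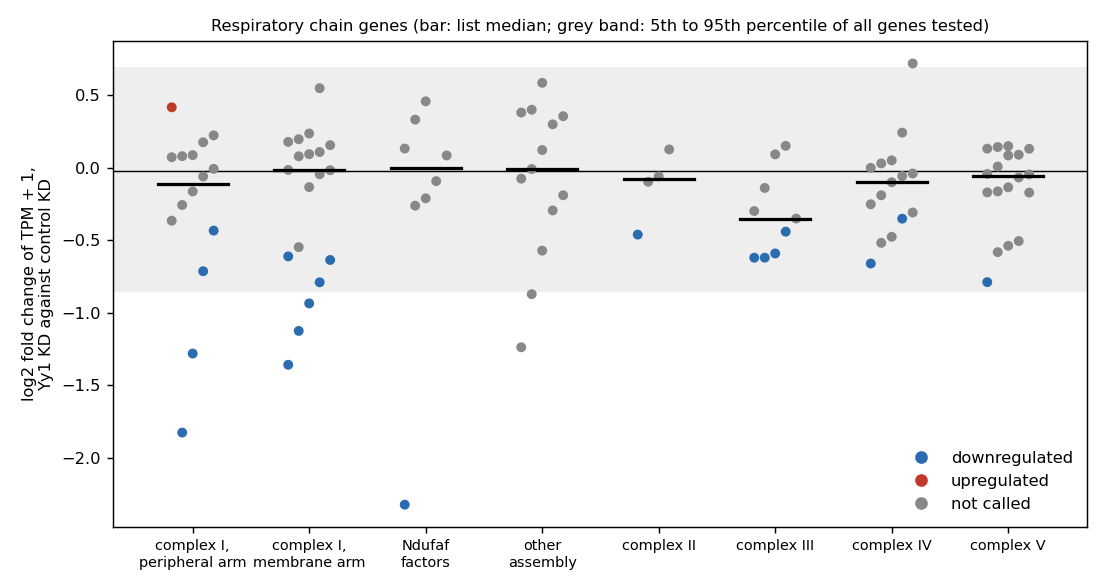
Log2 fold change of TPM + 1 (*Yy1* KD against control KD, vertical axis) of tested genes of complex I, its assembly genes and complexes II to V, with the list median as a bar and the 5th to 95th percentile of all genes tested (-0.85 to 0.69) as a grey band. The medians include 1 complex I gene that is not drawn. Points below the band are in the complex I arms, in *Ndufaf6* and in 2 other assembly genes that were not called.

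Of 7 tested regulators of nuclear respiratory genes, *Gabpa*, which encodes an ETS factor, was upregulated and 0 were downregulated, with 1 lower at an unadjusted p by limma and 1 downregulated of 6 by limma-voom. *Gabpa* was at 139, 149 and 144 TPM against 185, 191 and 186 TPM, with no overlap (log2 fold change 0.38, standard error 0.064, limma adjusted p = 0.0259), and it was not called in any of the 6 fits that left out 1 library. It shares 397 nt of exon with *Atp5j*, which was at 238 ± 5.19 and 211 ± 15.5 TPM and was not called, so shared sequence limits its value. *Nrf1* was at 21.4 ± 1.04 and 20.9 ± 2.11 TPM and *Tfam*, a factor for mitochondrial DNA, at 24.7 ± 1.36 and 28.6 ± 3.35 TPM, both with overlapping groups. *Ppargc1b*, a coactivator, was lower in each *Yy1* KD library, at 8.15 ± 1.42 and 4.40 ± 0.475 TPM, but did not pass the test (log2 fold change -0.75, limma adjusted p = 0.0566). *Ppargc1a* was at or near 0 and was not tested.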

How the data were processed

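RNA-seq was performed on 3 control KD and 3 *Yy1* KD libraries of pooled morulae, grouped by their labels. The authors trimmed reads (Trim Galore 0.6.7), aligned them to mm10 with HISAT2 2.2.1, removed ribosomal RNA with bedtools, assigned pairs to GENCODE vM25 genes with featureCounts 2.0.1, divided among overlapping genes and unstranded, and deposited TPM. Genes of at least 1 TPM in at least 3 of 6 libraries were tested with limma 3.58.1 (R 4.3.3) on log2(TPM + 1) with a variance trend, in place of the study's count test, since TPM are not counts. The fit was also run on simulated data with values drawn independently for each gene. That simulation held no effects shared within a library and no changes as small as those of several called genes, so it does not bear on either. SD rest on 3 libraries per group, and limma's standard errors also draw on the variance trend over all genes tested. The libraries are pools whose independence beyond the labels is not stated. GENCODE vM21 gave coordinates and exon lengths, from which read pairs were recovered, with 89.0% to 90.9% of low values whole within 0.02 pairs.

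The result of 1 gene is not reported here, though counts and medians include it. Genes and lists were chosen with earlier results of these data known. Described in full were called genes, the most abundant gene of each symbol group, the 6 genes not called with the largest change and no overlap, the gene with the smallest change, and called genes of the pathway lists, and *Rbm10* and other genes that share sequence were added after their values were seen. The alternatives were other pseudocounts, filters, scalings and variance settings, limma-voom, fits that left out a library and a fit with a replicate block. Protein sequences, the genome and YY1 binding were not used here. Tables and plots used Python 3.11.15, pandas 2.3.3, numpy 2.4.6 and matplotlib 3.10.9.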

Additional observations from a re-analysis of the deposited data

How the results depend on the processing

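The 11 downregulated subunit genes became 5 without a filter on low values and 5 without a variance trend, and between 1 and 9 when a library was left out. The upregulated subunit gene was lost (0) under these settings, the fits without a library included, and became 2 among protein-coding genes alone. An upregulated *Ndufaf* gene was called (1) with limma-voom, with a mean TPM of at least 5, with quantile normalization and among protein-coding genes. Over all genes the 1061 calls became 2089 with limma-voom, 347 without a filter, 514 without a variance trend, 1877 among protein-coding genes, 4123 at an unadjusted p under 0.05 (added after the data were seen) and 73 to 412 without a library. The median of the subunit genes was 0.028 and that of the *Ndufaf* genes 0.078 with quantile normalization, and the subunit median was between -0.13 and -0.018 without a library. The cause of these shifts was not tested. A fit without a library also has fewer samples, and the part of each cannot be told apart.

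Libraries with the same replicate number did not deviate together (r = -0.0039, 0.032 and 0.075), so the numbers were not treated as pairs. With the number as a replicate block, 287 genes were called, of which 4 subunit genes were downregulated and 0 upregulated. Over 13 called complex I genes and all fits that left out a library, 32 results were called in the same direction and 46 lost the call. Over the other alternatives these were 133 and 23, and 10 results of genes not called passed the test. No call reversed. TPM keep no counts, and calls of small changes are limited by 3 libraries per group.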
